A study of Mus musculus with 23 samples.

Results

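Pericytes and vascular smooth muscle cells, together called mural cells, were followed here through 9 of their genes, Acta2, Tagln, Myh11, Rgs5, Pdgfrb, Cspg4, Notch3, Kcnj8 and Abcc9. These 9 were chosen by name, as widely used mural cell genes, out of the 54347 genes of the deposited table, and all 9 were found there. The 23 RNA-seq libraries hold cells of the labial cervical loop, the epithelial fold with its surrounding tissue at the growing end of the mouse lower incisor. All mice were at postnatal day 2 and carried Sox2-GFP, a reporter in which the endogenous Sox2 promoter drives green fluorescent protein. The dissected tissue was dissociated with collagenase and a neutral protease, sorted by fluorescence, and made into libraries with the Smart-seq2 protocol, which amplifies full-length cDNA from few cells and does not mark the strand. The study set Sox2-positive cells, named dental epithelial stem cells (DESC) in the labels, against Sox2-negative cells of the same region. Of the 4 groups, those of batch A held 6 Sox2-negative and 6 Sox2-positive libraries, and those of batch B held 4 Sox2-negative and 7 Sox2-positive libraries. Each batch had its own day and its own mice, so day and mice cannot be told apart between them. Whether libraries of 1 group came from separate mice is not given, so n counts libraries, and p-values measure the spread between these libraries, which may be technical.

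Mural cells wrap small vessels and adjust their width and stability. Endothelial cells recruit them by releasing PDGF-B, which binds the receptor Pdgfrb on the mural cell, and hold them in contact through Notch ligands that act on Notch3. Smooth muscle cells of arteries carry a contractile apparatus built from smooth muscle actin, myosin and their binding proteins, while pericytes on capillaries carry less of it and are marked by Rgs5, Cspg4 and an ATP-sensitive potassium channel. In a growing tooth these vessels run in the mesenchyme outside the epithelium.

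Total estimated counts ranged from 2305778 to 9541443 per library, so that 3 counts, taken as the floor of detection, corresponded to 0.314 to 1.30 CPM, the count relative to library size used throughout. Such floors include counting error alone, because reads that carry no molecular identifier are not independent molecules. Sox2 itself lay between 0 and 1.18 CPM in the 10 Sox2-negative libraries and between 2.54 and 20.3 CPM in the 13 Sox2-positive libraries. The summed level of 6 epithelial markers ranged from 143 to 389 CPM in Sox2-negative libraries and from 3557 to 5691 CPM in Sox2-positive libraries. Libraries 1 and 2 of each batch B group had been found to stand apart from the rest in earlier work on these data, and the results that changed without them are given with both values.

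In both batches most of the 9 genes were lower in Sox2-positive than in Sox2-negative cells, while Tagln was higher and Cspg4 was similar or slightly higher. Rgs5, Pdgfrb, Notch3, Kcnj8 and Abcc9 fell in each batch. Acta2 fell in batch A and not in batch B. Over both batches with batch as a covariate, 6 genes fell and 1 rose at an edgeR quasi-likelihood adjusted p under 0.05, against a background of 57.5% of the 17190 genes tested that were called in either direction (32.5% lower, 24.9% higher). Myh11 did not pass the filter on low counts, so 8 of the 9 genes were tested. In batch A alone 6 of the 8 fell and 1 rose (background 43.4%, with 24.2% lower and 19.3% higher), and in batch B alone 5 fell and 2 rose (background 54.7%, with 27.6% lower and 27.1% higher). The median log2 fold change of the 8 genes was -2.45 over both batches, where the median of all genes tested was -0.12. It was -2.96 in batch A (all genes -0.04) and -1.74 in batch B (all genes 0.01). In bulk samples of sorted cells, fewer mural cells and less RNA per cell cannot be told apart. Markers of other cells outside the epithelium moved with these genes. All 10 mesenchymal markers fell over both batches, from a summed level of 11658 to 14890 CPM in Sox2-negative libraries to 705 to 1928 CPM in Sox2-positive libraries, and all 10 endothelial markers fell, from 345 to 1670 CPM to 19.6 to 37.2 CPM. Cdh5, the endothelial cadherin, had at most 2 counts in any Sox2-positive library. Their part in the results for the 9 genes was not tested.

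**Figure D1:**
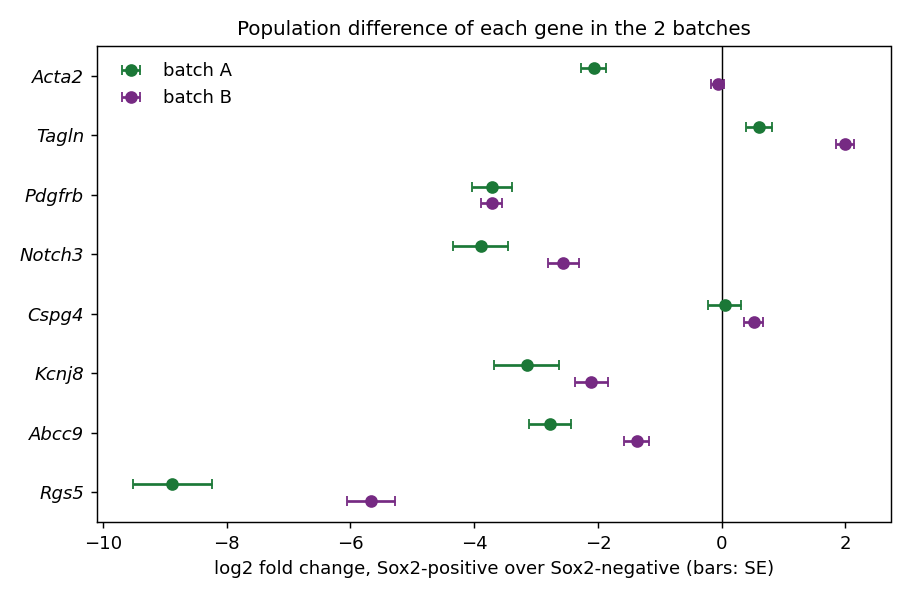
Log2 fold change of Sox2-positive over Sox2-negative cells for the 8 tested genes (horizontal axis) in batch A (green) and batch B (purple); points are edgeR estimates, bars are 1 SE, and the vertical line marks no difference. Rgs5 lies farthest to the left in both batches (-8.88 and -5.66), the Pdgfrb points coincide (-3.71 and -3.72), and Acta2 and Tagln differ between batches.

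Smooth muscle actin, myosin heavy chain and transgelin build and bind the contractile filaments. Acta2 encodes alpha smooth muscle actin and lies at chr19:34241090-34255590 on the minus strand (GRCm38). Its level was 107 to 161 CPM in batch A Sox2-negative libraries, with a median of 126 CPM and a mean of 129.9 ± 20.6 CPM (SD, n = 6). In batch A Sox2-positive libraries it ran from 18.3 to 38.8 CPM with a median of 31.1 CPM (mean 30.8 ± 7.75 CPM, SD, n = 6). Every Sox2-positive library of batch A lay below every Sox2-negative one, and Acta2 was 4.20-fold lower there (log2 fold change -2.07, SE 0.20, edgeR adjusted p 5.72e-07). In batch B the 4 Sox2-negative libraries held 207, 209, 235 and 244 CPM, and the 7 Sox2-positive libraries held 176 to 217 CPM with a median of 209 CPM. These 2 groups overlapped, and the log2 difference was -0.06 with a 95% interval from -0.27 to 0.14 (edgeR adjusted p 0.637). The order of the group means was batch B Sox2-negative, batch B Sox2-positive, batch A Sox2-negative and batch A Sox2-positive, and only the neighbours at the top of that order overlapped.

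The population difference of Acta2 differed between the batches by 1.94 on the log2 scale (SE 0.22, edgeR adjusted p 9.99e-07 for the interaction, batch B minus batch A). Between batches, Acta2 was 6.62-fold higher in batch B within Sox2-positive cells (log2 2.73, SE 0.15, edgeR adjusted p 3.69e-13) and 1.72-fold higher within Sox2-negative cells (log2 0.78, SE 0.16, edgeR adjusted p 0.00128). In both populations the batch B libraries all lay above the batch A libraries. A gene model named CT010467.1 had the pattern nearest to that of Acta2 and averaged 44761 and 18087 CPM in the Sox2-negative and Sox2-positive cells of batch A and 100541 and 77949 CPM in those of batch B. Whether what sets that level has a part in the Acta2 result was not tested.

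Alpha smooth muscle actin belongs to a family of near-identical actins, so the reads of Acta2 could be shared with its relatives where the genes carry the same letters. The last 60 coding bases are shown because other muscle actins were abundant in some of these libraries. This stretch differs from that of Acta2 at 11 bases in Actg2, 8 in Acta1 and 12 in Actc1. Capitals mark bases that differ from Acta2.
Acta2: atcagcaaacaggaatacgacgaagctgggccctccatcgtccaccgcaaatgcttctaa
Actg2: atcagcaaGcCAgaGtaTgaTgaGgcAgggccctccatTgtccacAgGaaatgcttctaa
Acta1: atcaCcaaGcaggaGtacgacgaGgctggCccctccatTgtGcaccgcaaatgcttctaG
Actc1: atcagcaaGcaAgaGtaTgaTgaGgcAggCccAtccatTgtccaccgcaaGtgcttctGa
Over the whole coding sequence, Acta2 was identical to Actg2 at 84.2%, to Acta1 at 85.4% and to Actc1 at 82.5% of the positions. Of the 31-base words in the Acta2 transcripts, 1.39% also occurred in another gene. The genes that shared most of them were the cytoplasmic actin Actg1 and actin pseudogenes, and genes that shared fewer were not listed.

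Tagln encodes transgelin, an actin-binding protein of smooth muscle, at chr9:45929619-45936058 on the minus strand. It ran against the other genes. In batch A its level was 26.3 to 54.2 CPM in Sox2-negative libraries (median 39.9 CPM, mean 41.4 ± 9.74 CPM, SD, n = 6) and 55.2 to 72.8 CPM in Sox2-positive libraries (median 62.7 CPM, mean 62.9 ± 6.70 CPM, SD, n = 6). The groups did not overlap, and Tagln was 1.52-fold higher in Sox2-positive cells (log2 0.61, SE 0.20, edgeR adjusted p 0.025). Without Sox2-positive library 2 of batch A the adjusted p was 0.0532. In batch B the Sox2-negative libraries held 72.6, 47.4, 56.2 and 41.3 CPM and the Sox2-positive libraries 187 to 225 CPM with a median of 207 CPM. The batch B groups were far apart, with Tagln 3.99-fold higher in Sox2-positive cells (log2 2.00, SE 0.15, edgeR adjusted p 1.34e-08).

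The Tagln difference was larger in batch B by 1.33 on the log2 scale (SE 0.23, edgeR adjusted p 0.000389). Within Sox2-positive cells Tagln was 3.29-fold higher in batch B (log2 1.72, SE 0.15, edgeR adjusted p 4.68e-09), without overlap. Within Sox2-negative cells the batches overlapped, with a log2 difference of 0.39 and a 95% interval from 0.06 to 0.73 (edgeR adjusted p 0.141). From highest to lowest the group means were batch B Sox2-positive, batch A Sox2-positive, batch B Sox2-negative and batch A Sox2-negative. The highest group stood alone, and each of the others overlapped its neighbour in that order. The exons of Tagln overlap 1241 bases of Gm48529 and 108 bases of Pcsk7 on the opposite strand, and 62.2% of its 31-base words also occur in another gene. Without strand, reads of Tagln and of these genes cannot be told apart, so its level is uncertain to that extent. Gm48529 averaged 4.97 CPM or less in each group, and Pcsk7 was lower in the Sox2-positive groups (23.1 and 20.4 CPM) than in the Sox2-negative groups (35.4 and 32.3 CPM).

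Myh11, the smooth muscle myosin heavy chain and the most restricted marker of mature smooth muscle among the 9, was near the floor. It lies at chr16:14194535-14291372 on the minus strand. Batch A Sox2-negative libraries held 3, 0, 47, 0, 6 and 33 counts, a mean of 3.86 ± 5.34 CPM (SD, n = 6), and batch B Sox2-negative libraries held 1, 9, 26 and 1 counts, a mean of 1.46 ± 1.93 CPM (SD, n = 4). In batch A Sox2-positive libraries only library 3 had any, with 10 counts, and in the Sox2-positive libraries of batch B the largest value was 4 counts. Levels therefore varied from 0 to 12.3 CPM within 1 group, and all groups overlapped. With no filter on low counts, Myh11 was called lower over both batches. The share of all genes called lower in that fit is not given here.

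**Figure D2:**
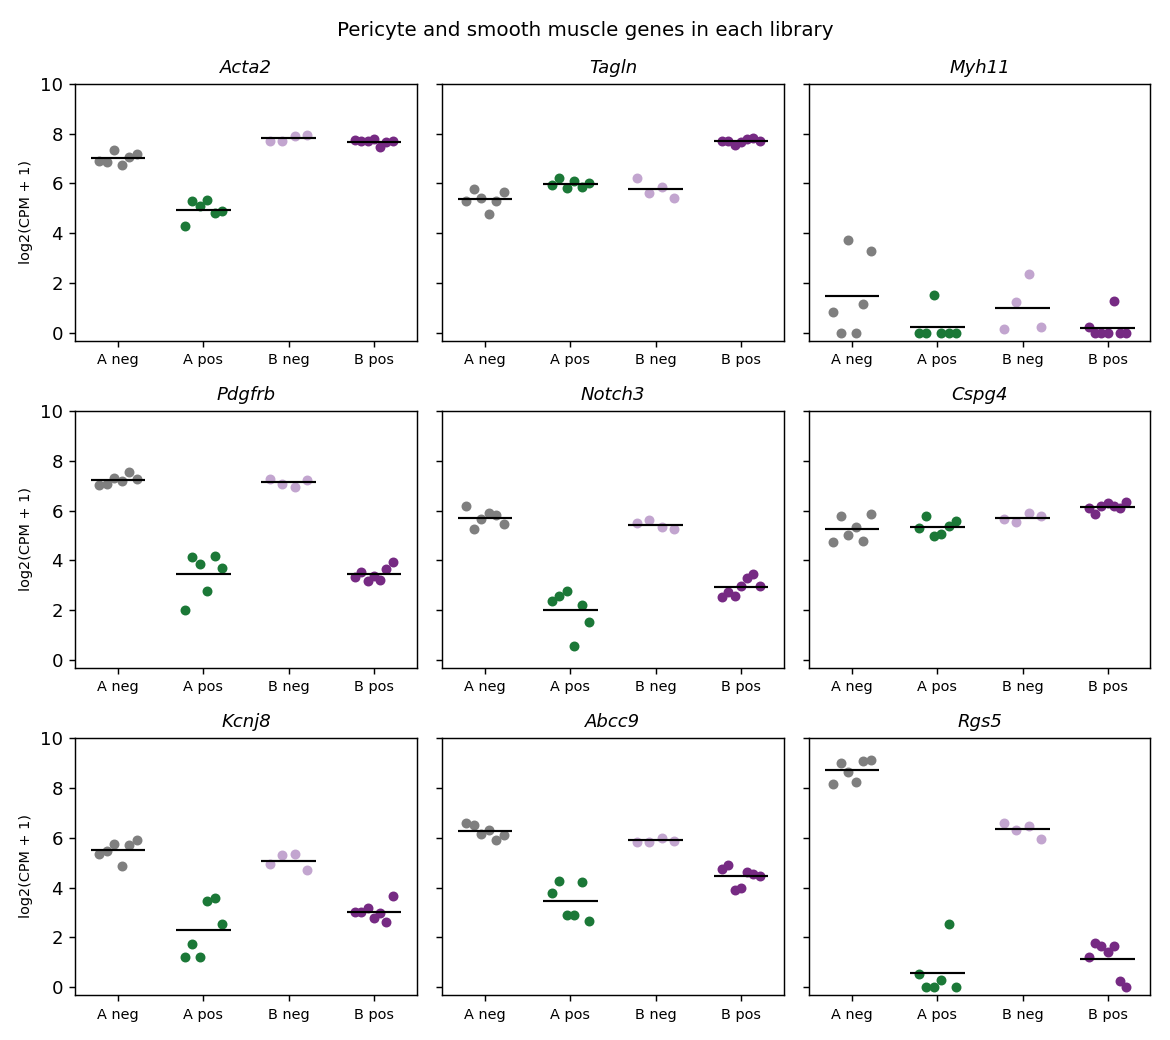
Level of each of the 9 genes in every library, as log2(CPM + 1) (vertical axis), in the 4 groups (horizontal axis: batch A or B, Sox2-negative or Sox2-positive); each point is 1 library and the line is the mean of the group. Pdgfrb, Notch3, Kcnj8, Abcc9 and Rgs5 are lower in Sox2-positive libraries without overlap in both batches, and Acta2 only in batch A. Tagln is higher in the Sox2-positive libraries of both batches and highest in those of batch B.

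Both receptors of the list fell in Sox2-positive cells. Pdgfrb, the beta receptor for PDGF, is at chr18:61045150-61085061 on the plus strand. Its level was 129 to 185 CPM in batch A Sox2-negative libraries (mean 150.5 ± 20.7 CPM, SD, n = 6) and 3.09 to 17.1 CPM, with a median of 12.8 CPM, in batch A Sox2-positive libraries (mean 11.4 ± 5.70 CPM, SD, n = 6). In batch B it was 154, 133, 124 and 148 CPM in Sox2-negative libraries and 7.96 to 14.2 CPM, with a median of 9.43 CPM, in Sox2-positive libraries. The populations were well apart in both batches, and of the 8 tested genes Pdgfrb differed least in this effect between batches. It was 13.1-fold lower in Sox2-positive cells of batch A (log2 -3.71, SE 0.33, edgeR adjusted p 2.14e-07) and 13.2-fold lower in those of batch B (log2 -3.72, SE 0.17, edgeR adjusted p 3.51e-11). The difference between batches in this effect was -0.07 with a 95% interval from -0.79 to 0.65 (edgeR adjusted p 0.96). No part of its level between batches passed the test either, with log2 differences of -0.11 (interval -0.64 to 0.42) in Sox2-negative cells and -0.18 (interval -0.68 to 0.32) in Sox2-positive cells.

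Notch3, a Notch receptor of arterial smooth muscle and pericytes, is at chr17:32120820-32166852 on the minus strand. Batch A Sox2-negative libraries held 37.6 to 72.5 CPM with a median of 52.7 CPM (mean 52.9 ± 12.2 CPM, SD, n = 6), and batch A Sox2-positive libraries 0.473 to 5.82 CPM with a median of 3.91 CPM (mean 3.50 ± 1.99 CPM, SD, n = 6). Batch B Sox2-negative libraries held 44.5, 47.7, 39.0 and 37.4 CPM, and batch B Sox2-positive libraries 4.87 to 9.96 CPM with a median of 6.77 CPM. Every Sox2-positive library was below every Sox2-negative one. Notch3 was 14.9-fold lower in batch A (log2 -3.89, SE 0.45, edgeR adjusted p 3.51e-06) and 5.90-fold lower in batch B (log2 -2.56, SE 0.25, edgeR adjusted p 3.79e-07). The difference of these effects, 1.28 (SE 0.50), did not pass the edgeR test (adjusted p 0.132), while DESeq2 gave 1.31 with an adjusted p of 0.0391. Its exons overlap 488 bases of Gm17276 on the opposite strand, which averaged 3.47 CPM or less in each group.

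Cspg4 encodes NG2, a membrane proteoglycan of pericytes that is also made by glial precursors, at chr9:56865033-56899870 on the plus strand. Unlike the receptors, it was well above the floor in every group and differed little between the populations. Its range was 25.4 to 57.0 CPM in batch A Sox2-negative libraries (mean 39.2 ± 13.7 CPM, SD, n = 6) and 30.4 to 53.5 CPM in batch A Sox2-positive libraries (mean 40.4 ± 8.80 CPM, SD, n = 6). Both groups covered the same range, and the log2 difference was 0.05 with a 95% interval from -0.48 to 0.57 (edgeR adjusted p 0.903). In batch B the Sox2-negative libraries held 49.0, 45.3, 59.2 and 54.4 CPM and the Sox2-positive libraries 56.8 to 80.6 CPM with a median of 71.0 CPM. Here the groups overlapped slightly, and Cspg4 was 1.43-fold higher in Sox2-positive cells (log2 0.52, SE 0.15, edgeR adjusted p 0.00825). That call was lost without libraries 1 and 2 of batch B (log2 0.42, edgeR adjusted p 0.0621).

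Over both batches Cspg4 did not pass the test (log2 0.23, edgeR adjusted p 0.209), although leaving out Sox2-negative library 6 of batch A gave a log2 difference of 0.36 with an adjusted p of 0.0388. Between batches it was 1.75-fold higher in the Sox2-positive cells of batch B (log2 0.81, SE 0.20, edgeR adjusted p 0.00633), with no overlap. The summed level of 7 glial and neural crest markers was 846 to 1078 CPM in batch A Sox2-positive libraries and 40.0 to 77.6 CPM in batch B Sox2-positive libraries. The part of these markers in the Cspg4 result was not tested.

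Kcnj8 and Abcc9 encode the pore (Kir6.1) and the regulatory subunit (SUR2) of the ATP-sensitive potassium channel of mural cells, which couples energy state to membrane voltage and vessel tone. The genes are neighbours on the minus strand of chromosome 6, Kcnj8 at chr6:142564837-142571614 and Abcc9 at chr6:142587862-142702315, with 16.2 kb between them. Kcnj8 ran from 28.1 to 59.9 CPM in batch A Sox2-negative libraries (median 47.3 CPM, mean 45.8 ± 11.3 CPM, SD, n = 6) and from 1.31 to 11 CPM in batch A Sox2-positive libraries (median 3.55 CPM, mean 5.16 ± 4.42 CPM, SD, n = 6). In batch B the Sox2-negative libraries held 29.8, 38.1, 39.3 and 25.2 CPM and the Sox2-positive libraries 5.07 to 11.6 CPM with a median of 7.19 CPM. The populations did not overlap in either batch. Kcnj8 was 8.87-fold lower in Sox2-positive cells of batch A (log2 -3.15, SE 0.53, edgeR adjusted p 0.000155) and 4.32-fold lower in those of batch B (log2 -2.11, SE 0.27, edgeR adjusted p 5.94e-06). The interaction of 0.98 had a 95% interval from -0.19 to 2.15 (edgeR adjusted p 0.386), and neither population passed the test between batches.

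Abcc9 followed the same order of groups. Batch A Sox2-negative libraries held 59.1 to 96.6 CPM (median 74.7 CPM, mean 77.3 ± 14.4 CPM, SD, n = 6) and batch A Sox2-positive libraries 5.40 to 18.4 CPM (median 9.69 CPM, mean 11.2 ± 5.96 CPM, SD, n = 6). Batch B Sox2-negative libraries held 56.4, 56.5, 63.2 and 58.3 CPM, and batch B Sox2-positive libraries 13.8 to 28.9 CPM with a median of 22.3 CPM. The populations were apart in each batch, and the highest Sox2-positive values were those of libraries 1 and 2 of batch B. Abcc9 was 6.83-fold lower in batch A (log2 -2.77, SE 0.34, edgeR adjusted p 6.89e-06) and 2.59-fold lower in batch B (log2 -1.38, SE 0.21, edgeR adjusted p 3.79e-05). The smaller difference in batch B gave an interaction of 1.34 (SE 0.40, edgeR adjusted p 0.0426), and Abcc9 was 1.91-fold higher in batch B within Sox2-positive cells (log2 0.94, SE 0.27, edgeR adjusted p 0.0228). Without libraries 1 and 2 of batch B both calls were lost, at an interaction of 1.09 (edgeR adjusted p 0.34) and a Sox2-positive difference of 0.74 (edgeR adjusted p 0.19). The interaction also failed the test when most single libraries were left out, with adjusted p up to 0.0851. The partner subunits of other tissues were near the floor: Kcnj11 had at most 13 counts in any library and was not tested, and Abcc8 had at most 27 counts and did not pass (edgeR adjusted p 0.517 over both batches).

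Rgs5 is a regulator of G-protein signalling that shortens receptor signals in pericytes, at chr1:169655501-169695813 on the plus strand. It had the largest population difference of the 8 tested genes in each batch. Its level was 286 to 555 CPM in batch A Sox2-negative libraries (median 454 CPM, mean 430.0 ± 121.0 CPM, SD, n = 6), while batch A Sox2-positive libraries held 2, 0, 0, 1, 24 and 0 counts. In batch B the Sox2-negative libraries held 95.9, 79.0, 87.8 and 61.0 CPM, and the Sox2-positive libraries 8, 17, 14, 7, 6, 1 and 0 counts, at most 2.40 CPM. No Sox2-positive library came near a Sox2-negative one. The log2 fold change was -8.88 in batch A (SE 0.64, edgeR adjusted p 1.82e-08) and -5.66 in batch B (SE 0.39, edgeR adjusted p 5.33e-09), or 471-fold and 50.7-fold lower in Sox2-positive cells. The batch A value rests on library 5, the one with 24 counts, and was -11.54 without it.

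Between batches Rgs5 moved in the Sox2-negative cells. It was 5.32-fold lower in batch B (log2 -2.41, SE 0.46, edgeR adjusted p 0.000821), with no overlap, and was the only 1 of the 8 tested genes to fall there. In the same comparison all 10 endothelial markers were called lower (background 5.35%), with a median log2 fold change of -2.00. Called lower were 7 to 10 of them when single libraries were left out and 5 without libraries 1 and 2 of batch B. Their summed level was 1271 to 1670 CPM in batch A and 345 to 486 CPM in batch B Sox2-negative libraries. All 7 leukocyte markers were called lower as well, 5 to 7 of them when single libraries were left out. They went from 3005 to 3396 CPM summed down to 539 to 604 CPM, and erythroid markers rose from 980 to 1182 CPM summed to 53432 to 61787 CPM. Their part in the Rgs5 result was not tested. The other 4 genes that were lower in Sox2-positive cells of both batches, Pdgfrb, Notch3, Kcnj8 and Abcc9, did not pass the test between batches in Sox2-negative cells. Their log2 differences were -0.11, -0.33, -0.47 and -0.40. The lower limits of their 95% intervals, -0.64, -1.04, -1.33 and -0.99, all lay above the estimate for Rgs5. The Rgs5 interaction was 3.17 (SE 0.83, edgeR adjusted p 0.0173), and it did not pass without libraries 1 and 2 of batch B (3.07, edgeR adjusted p 0.152) or with DESeq2 (adjusted p 0.0803). In Sox2-positive cells the batches differed by 0.76 (interval -0.63 to 2.14, edgeR adjusted p 0.616), and by 3.46 (edgeR adjusted p 0.00255) without batch A library 5, where the interaction was 5.89.

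The promoter windows of Rgs5 and Kcnj8 are shown as 2 genes of the set that fell in both batches, each as the 250 bases before the RefSeq start (GRCm38.p6), in the direction of the gene.
Rgs5, chr1:169655251-169655500, plus strand: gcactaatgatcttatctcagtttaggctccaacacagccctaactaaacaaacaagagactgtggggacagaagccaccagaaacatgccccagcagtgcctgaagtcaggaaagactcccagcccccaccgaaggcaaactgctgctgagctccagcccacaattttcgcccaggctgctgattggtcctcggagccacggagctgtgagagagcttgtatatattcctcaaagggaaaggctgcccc
Kcnj8, chr6:142571615-142571864, minus strand: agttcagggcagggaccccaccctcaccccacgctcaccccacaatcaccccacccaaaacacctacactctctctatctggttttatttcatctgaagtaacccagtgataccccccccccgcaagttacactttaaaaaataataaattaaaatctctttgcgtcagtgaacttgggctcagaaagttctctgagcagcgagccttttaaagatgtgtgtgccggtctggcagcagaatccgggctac
These windows were searched on both strands for CAGCTG, an E box, and for GTGGGAA, the core bound by the Notch effector Rbpj. The CArG box bound by serum response factor was searched only in its strict form, CCWWWWWWGG with W for A or T. Sites that depart from that form were not searched for. Neither window held any of the 3, which says only that these letters are not there. Of the windows of the other members that had one, those of Acta2 (from -182 to -177) and Abcc9 (from -27 to -22) held CAGCTG, and those of Cspg4 and Notch3 held none of the 3. The Acta2 window holds ccctatatgg and ccttgtttgg, which depart from the strict CArG form and were not counted. Annotated exon covers 217 of the bases of that window. Over 32851 promoter windows of this length, 1.47% held a CArG box, 5.42% held GTGGGAA and 13.0% held CAGCTG.

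Between the batches, 1 of the 8 genes rose and 1 fell in Sox2-negative cells of batch B against batch A (background 11.2%, with 5.85% higher and 5.35% lower), and 4 rose and 4 did not pass in Sox2-positive cells (background 10.4%, with 4.85% higher and 5.54% lower). The 4 were Acta2, Tagln, Cspg4 and Abcc9, and the median of the 8 was 0.87 where the median of all genes was 0.00. Also, 4 of the 8 genes passed the interaction test, all with a higher value in batch B (background 7.04%, with 2.82% higher and 4.22% lower), namely Acta2, Tagln, Rgs5 and Abcc9. The population comparisons and the comparisons between batches use the same libraries. Scaling by total counts moved the median of all genes by 0.12 in the comparison over both batches and by -0.15 between batches in Sox2-negative cells. It also moved the split of the genes called between batches, from 1005 higher and 919 lower to 661 and 1388 in Sox2-negative cells, and from 833 and 952 to 666 and 1214 in Sox2-positive cells.

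Per length, the levels of the 9 genes could be set beside each other, as mean CPM per kilobase of the median coding transcript. In batch A Sox2-negative cells Rgs5 was highest at 178 CPM per kb, followed by Acta2 at 63.8, Pdgfrb at 27.8, Tagln at 26, Kcnj8 at 19.0 and Abcc9 at 11.4 CPM per kb. In batch B Sox2-negative cells Acta2 came to the top at 110 CPM per kb, with Tagln at 34.1, Rgs5 at 33.6 and Pdgfrb at 25.8 CPM per kb. The Sox2-positive cells of batch B held mainly Tagln, at 130 CPM per kb, and Acta2, at 100.3 CPM per kb, with Cspg4 next at 8.74 CPM per kb. In those of batch A, Tagln led at 39.4 CPM per kb and Acta2 followed at 15.1 CPM per kb, while Rgs5 stood at 0.380 CPM per kb.

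As a sum, skeletal muscle genes separated batch B Sox2-positive libraries from all others, in the libraries where Acta2 and Tagln were high together. The summed level of 8 skeletal muscle markers was 212 to 404 CPM there and 0.537 to 15.2 CPM in the other 3 groups. Myod1 and Myog, transcription factors that commit cells to skeletal muscle, averaged 19.6 ± 7.40 CPM and 51.5 ± 23.3 CPM (SD, n = 7) in these libraries, and Myod1 had 0 counts in all 16 others. Acta1, the skeletal muscle actin, averaged 126 ± 23.9 CPM there (SD, n = 7) and at most 0.689 CPM in the other groups, and Actc1, the cardiac actin that fetal skeletal muscle also makes, averaged 108 ± 27.9 CPM (SD, n = 7) and at most 0.177 CPM elsewhere. In batch B, Acta1 was called higher in Sox2-positive cells (log2 8.69, SE 0.51, edgeR adjusted p 7.37e-10, and log2 12.48 without Sox2-negative library 3, which held all 8 counts of that group), as was Actc1, which had 0 counts in all 4 Sox2-negative libraries (edgeR adjusted p 1.76e-10). Between the populations of batch B, 5 of the 8 markers were called higher in Sox2-positive cells and 3 did not pass (background 27.1% higher). Tnnt3 was as low in batch B Sox2-positive libraries (mean 3.11 CPM) as in batch A Sox2-negative ones (mean 3.03 CPM). Between the Sox2-positive cells of the 2 batches 7 of the 8 markers were called higher in batch B (background 4.85%). Their part in the Acta2 and Tagln results was not tested.

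The promoter of Acta1 is shown because it holds a CArG box in the strict form searched for above. Capitals mark an E box, CAGCTG, from base -221 to -216 and the CArG box from -73 to -64 before the start.
Acta1, chr8:123894776-123895025, minus strand: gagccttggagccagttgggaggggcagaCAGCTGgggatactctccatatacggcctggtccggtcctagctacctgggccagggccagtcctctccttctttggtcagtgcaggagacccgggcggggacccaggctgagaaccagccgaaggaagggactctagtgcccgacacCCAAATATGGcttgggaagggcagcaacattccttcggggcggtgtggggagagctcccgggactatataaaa

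**Figure D3:**
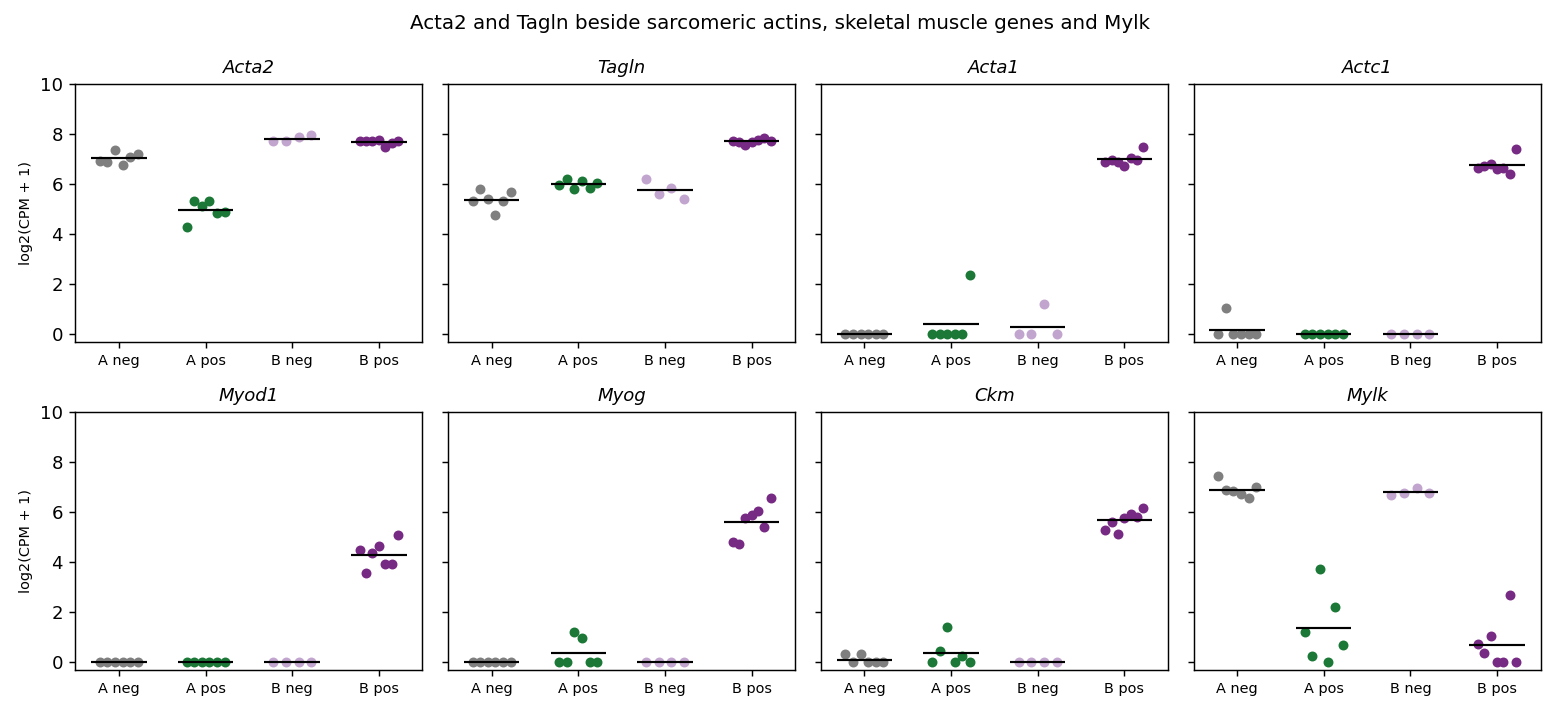
Acta2 and Tagln beside the sarcomeric actins Acta1 and Actc1, the skeletal muscle genes Myod1, Myog and Ckm, and the smooth muscle kinase Mylk, as log2(CPM + 1) per library (vertical axis) in the 4 groups (horizontal axis); lines are group means. Acta1, Actc1, Myod1, Myog and Ckm are high in batch B Sox2-positive libraries and near 0 in the others, while Mylk is high in the Sox2-negative libraries of both batches.

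Of 16 other genes of the contractile apparatus, 14 were tested over both batches, and 6 fell, 1 rose and 7 did not pass (background 57.5%, with 32.5% lower and 24.9% higher). The list was thus called no more often than all genes tested, and its median log2 fold change was -0.90 (all genes -0.12). Mylk, the kinase that starts smooth muscle contraction by phosphorylating myosin light chain, averaged 121 ± 27.8 and 3.02 ± 4.77 CPM in Sox2-negative and Sox2-positive cells of batch A (SD, n = 6 each) and 110 ± 9.22 CPM (n = 4) and 1.07 ± 1.97 CPM (n = 7) in those of batch B. It was 56.0-fold lower in Sox2-positive cells (log2 -5.81, SE 0.53, edgeR adjusted p 5.13e-10), and by a log2 of -6.54 without Sox2-positive library 3 of batch A. It fell also in batch B (log2 -6.40, edgeR adjusted p 1.21e-07), where Acta2 did not pass the test. The tropomyosins Tpm2 and Tpm1, which lie along actin filaments, were 8.65-fold (log2 -3.11, edgeR adjusted p 6.16e-15) and 2.38-fold lower (log2 -1.25, edgeR adjusted p 1.61e-11). Synpo2, an actin-bundling protein of muscle Z-discs, was the 1 that rose (log2 3.42, SE 0.58, edgeR adjusted p 1.5e-05, and log2 4.28 without Sox2-negative library 5 of batch A). Between the Sox2-positive cells of the batches, 5 of the 14 rose and 1 fell in batch B (background 10.4%, with 4.85% higher and 5.54% lower). Among those that rose were Tpm2, by a log2 of 1.19 (edgeR adjusted p 4e-08), and Tpm1, by 0.68 (edgeR adjusted p 2.96e-05).

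Of 9 transcription factors of smooth muscle, 6 were tested over both batches and 3 fell, a share near the background (57.5% called, 32.5% lower). Foxs1, a forkhead factor of pericytes, averaged 6.13 ± 6.39 CPM (SD, n = 6) and 4.78 ± 3.59 CPM (SD, n = 4) in the Sox2-negative cells of batches A and B and had 0 counts in all 13 Sox2-positive libraries (edgeR adjusted p 1.52e-05). Ebf1 was 42.0-fold lower (log2 -5.39, SE 0.68, edgeR adjusted p 1.73e-07), and its log2 fold change was -6.86 without Sox2-positive library 3 of batch A, the only 1 of the 6 in that group with any counts (34). Mef2c, a partner of muscle factors, was lower over both batches (log2 -1.46, edgeR adjusted p 0.000875), a call lost with a replicate block (adjusted p 0.0564). It was lower in batch B (log2 -2.96, edgeR adjusted p 4.16e-08) and did not pass in batch A (log2 -0.04, edgeR adjusted p 0.915). Srf and its cofactors Mrtfa and Mrtfb, which drive contractile genes through CArG boxes, gave log2 differences of -0.43, -0.62 and 0.43 that did not pass over both batches. The population difference of Mrtfb differed between the batches (interaction 1.12, edgeR adjusted p 0.0175), and in batch B it was 2.18-fold higher in Sox2-positive cells (log2 1.12, edgeR adjusted p 3.63e-05) without overlap. Mrtfb was the only 1 of the listed factors called higher in the interaction. When single libraries were left out 0 to 2 of them were, so that call was not kept in every fit. Myocd, the smooth muscle cofactor of Srf, had at most 12 counts in any library and was not tested.

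Other pericyte genes were lower in Sox2-positive cells as well. Of 15 listed, 14 were tested over both batches, and 12 fell and 2 did not pass (background 57.5%, with 32.5% lower). Their median log2 fold change was -4.74 (all genes -0.12). Aspn, Higd1b and Steap4 fell most, by log2 fold changes of -8.02, -6.83 and -6.51 (edgeR adjusted p 4.21e-13, 2.73e-08 and 8.87e-08). Each rests on few Sox2-positive counts and was larger, at -8.71, -8.78 and -7.41, without library 2, 6 or 3 of the batch B Sox2-positive group, respectively, and Aspn was -9.29 without libraries 1 and 2 of batch B. Higd1b, known as a pericyte marker, averaged 21.6 ± 6.81 CPM (SD, n = 6) in batch A and 1.82 ± 0.987 CPM (SD, n = 4) in batch B Sox2-negative cells. It was 11.7-fold lower in batch B there (log2 -3.55, SE 0.77, edgeR adjusted p 0.00392), a call lost without libraries 1 and 2 of batch B (edgeR adjusted p 0.0585). Ndufa4l2 and Mcam fell with it in that comparison, and the other 11 tested did not pass (background 11.2%, with 5.35% lower). The median log2 difference of the 14 was 0.16 there (all genes -0.004), so the list as a whole did not fall. Across the alternatives 1 to 4 genes of the list were called lower there, and 2 to 3 when single libraries were left out. Vtn, the vitronectin gene often used to mark pericytes, had at most 15 counts in any library.

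**Figure D4:**
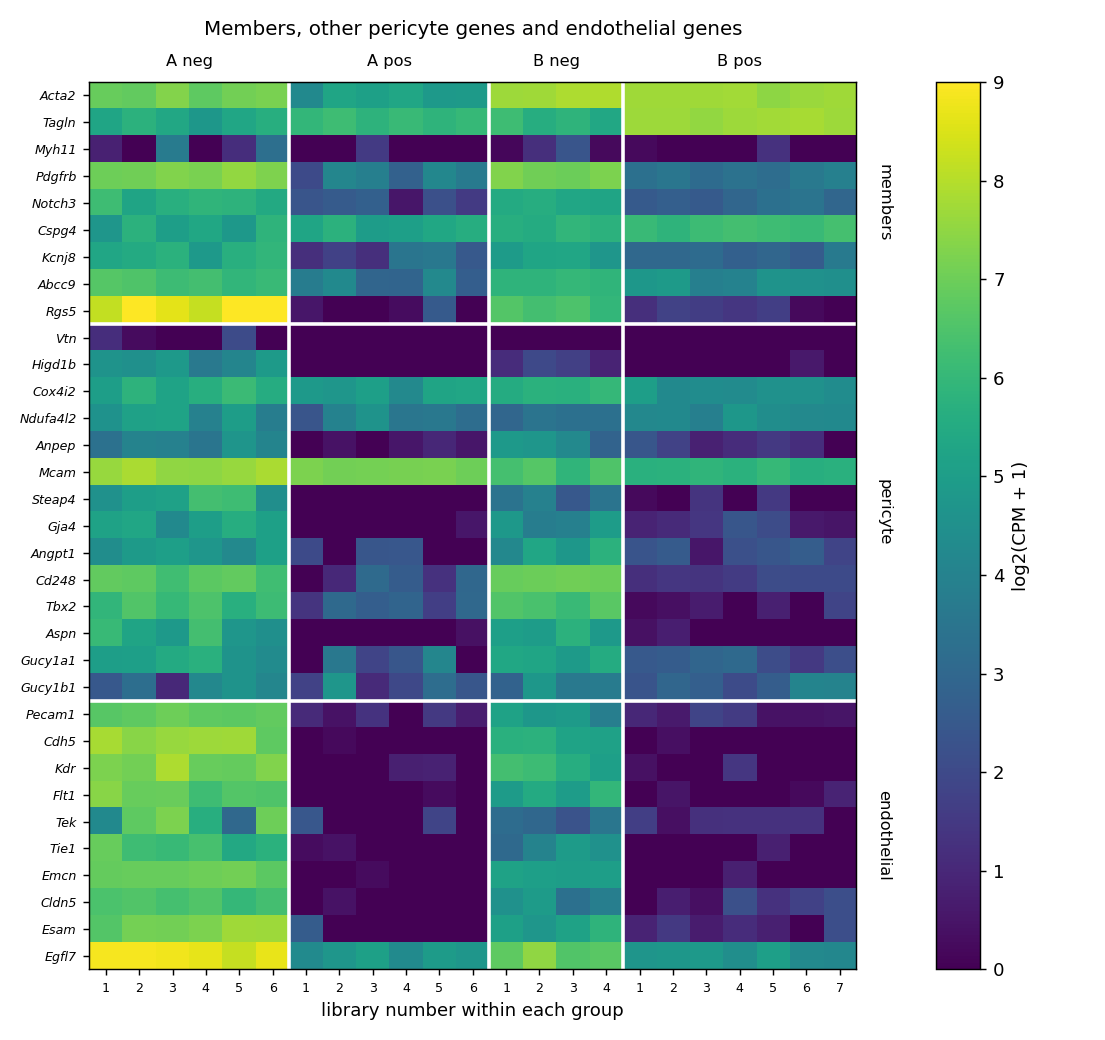
Colour gives log2(CPM + 1) in each library (columns, by group and library number) for the 9 genes, 14 of the 15 other pericyte genes and 10 endothelial markers (rows). The endothelial rows and Rgs5, Higd1b and Steap4 are brightest in batch A Sox2-negative libraries and dimmer in batch B Sox2-negative ones, whereas the Pdgfrb and Notch3 rows look alike in both.

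The ligands and partners of the 2 receptors fell on both sides. Of 17 PDGF and Notch genes, all tested, 4 rose and 6 fell over both batches, a share near the background (57.5% called, with 24.9% higher and 32.5% lower), and the median log2 fold change was -0.22 (all genes -0.12). Pdgfb, the ligand of Pdgfrb that endothelial cells release, averaged 42.7 ± 15.8 and 12 ± 5.15 CPM in Sox2-negative and Sox2-positive cells of batch A (SD, n = 6 each) and 14.1 ± 5.42 CPM (n = 4) and 10.8 ± 4.43 CPM (n = 7) in those of batch B. It fell in batch A (log2 -1.82, edgeR adjusted p 0.00115) and did not pass in batch B (log2 -0.32, edgeR adjusted p 0.468), and within Sox2-negative cells it was 3.03-fold lower in batch B (edgeR adjusted p 0.0125, and 0.0527 without Sox2-negative library 4 of batch B). Pdgfa, which acts mainly on the alpha receptor, was 4.15-fold higher in Sox2-positive cells (log2 2.05, edgeR adjusted p 1.2e-11), and Pdgfra was 5.75-fold lower (log2 -2.52, edgeR adjusted p 9.62e-13).

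Among Notch ligands, Dll4 was 23.7-fold lower in Sox2-positive cells (log2 -4.57, edgeR adjusted p 6.32e-06) and Jag1 was 1.40-fold lower (log2 -0.49, edgeR adjusted p 0.00454). Jag2 was 2.59-fold higher (log2 1.37, edgeR adjusted p 8.83e-07). Of the targets, Hey1 fell (log2 -1.34, edgeR adjusted p 0.000168) and Hey2 and the feedback inhibitor Nrarp rose (log2 2.83 and 2.57, edgeR adjusted p 1.43e-05 and 0.000955). The rise of Nrarp was unequal between the batches (interaction 5.31, edgeR adjusted p 1.3e-05). It was 1.03 in batch A (edgeR adjusted p 0.0282, up to 0.0617 when single libraries were left out) and 6.42 in batch B (edgeR adjusted p 2.86e-07), and within Sox2-negative cells Nrarp was lower in batch B by a log2 difference of -6.11 (edgeR adjusted p 1.78e-07). Batch B Sox2-negative libraries held only 0 to 3 counts of Nrarp (mean 0.239 CPM), at or under the floor. The sizes of 5.31, 6.42 and -6.11 rest on that group and are uncertain.

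The other receptors Notch1, Notch2 and Notch4 did not pass over both batches, with log2 differences of 0.08, -0.22 and -0.68, beside -3.32 for Notch3 (edgeR adjusted p 2.34e-10). Within the batches Notch2 went opposite ways, lower in Sox2-positive cells of batch A (log2 -0.80, edgeR adjusted p 6.7e-05) and higher in those of batch B (log2 0.58, edgeR adjusted p 0.00251), with an interaction of 1.31 (edgeR adjusted p 2.54e-05). Notch1 did not pass in batch A (log2 -0.57, edgeR adjusted p 0.107) and rose in batch B (log2 0.99, edgeR adjusted p 0.000161). Its interaction of 1.49 (edgeR adjusted p 0.00666) was lost with a replicate block (adjusted p 0.164). Notch4 passed in neither batch.

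Of 10 close relatives of the contractile genes, all tested, 3 rose, 4 fell and 3 did not pass over both batches (background 57.5%, with 24.9% higher and 32.5% lower). The 3 that rose were Acta1, Actc1 and the non-muscle myosin Myh14 (log2 1.57, edgeR adjusted p 0.00448), and with DESeq2 the value of Actc1 was -0.35. The list had 1 to 4 genes called higher across the alternatives, and 3 to 4 when single libraries were left out. Acta1 kept its call in every alternative, and Myh14 did not. Among the 4 that fell, Actb, the cytoplasmic beta actin, was 2.34-fold lower (log2 -1.23, edgeR adjusted p 5.38e-10), Myh9, a non-muscle myosin, 2.81-fold lower (log2 -1.49, edgeR adjusted p 2.06e-08) and Tagln2 1.91-fold lower (log2 -0.93, edgeR adjusted p 7.09e-08), whereas Tagln was 2.29-fold higher over both batches (log2 1.19, edgeR adjusted p 3.26e-06). Actg1 differed by 0.08 over both batches (edgeR adjusted p 0.303) and was higher in Sox2-positive cells of batch B (log2 0.39, edgeR adjusted p 0.000154), while batch A did not pass (log2 -0.11, edgeR adjusted p 0.21).

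The likeness of expression patterns was measured as the root mean square difference of log2(CPM + 1) over the 23 libraries, each gene centred on the mean of its 4 group means. Among the 9 genes the nearest pairs were Notch3 and Abcc9 at 0.683, Tagln and Cspg4 at 0.689, Pdgfrb and Notch3 at 0.713, and Kcnj8 and Abcc9 at 0.771, and the farthest were Tagln and Rgs5 at 4.29. Over 13038 genes with at least 5 CPM, the gene nearest to Notch3 was Tpm2 at 0.496. For Rgs5 the nearest were Tyrobp, a leukocyte gene, at 0.684 and Cdh5, the endothelial cadherin, at 0.741. Pdgfrb was nearest to Rassf2 at 0.461 and Bicc1 at 0.511, Kcnj8 to Ptprd at 0.545 and Prtg at 0.547, and Abcc9 to Atxn7 at 0.457 and Lgals3 at 0.488. Tagln was nearest to Prickle1 at 0.404 and Slc6a6 at 0.412, and Cspg4 to Lamp2 at 0.286 and Rps3 at 0.297.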

How the data were processed

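The deposited table holds estimated counts per gene, as the authors made them, with no scaling between libraries. Reads were processed with FastQC, Trimmomatic and Salmon against the mouse build mm10, per the submitters' processing notes, and the annotation and the summing of transcripts to genes are not given in the sources used here. Gene symbols and positions came from GENCODE M21 (GRCm38), in which 54094 identifiers (99.5%) matched without their version. All 23 columns were used.

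Estimated counts were rounded, filtered with filterByExpr (minimum count 10), scaled by TMM and tested with edgeR 4.0.16 (R 4.3.3) by the quasi-likelihood F test, two-sided, with Benjamini-Hochberg adjustment over all genes tested and a threshold of 0.05. Batch was a covariate over both batches, each batch was also fitted alone, and a model of the 4 group means gave the interaction and the comparisons between batches. The SE was the absolute log2 fold change over the root of F. CPM used the TMM-scaled totals. The procedure was tested on simulated data. The 9 genes and the gene lists were chosen with earlier results of these data known. From each list the text names up to 4 called genes with the largest change over both batches, and PDGF, Notch, channel and actin relatives singly. A gene that this rule names is not reported here. Ndufa4l2, Mcam, Ckm, Tnnt3, Srf, Mrtfa, Mrtfb and Myh14 were named after their values were seen. Alternatives were DESeq2 1.42.0, other scalings, no filter, a replicate block, the model of group means, and fits without single libraries or libraries 1 and 2 of batch B. The shared letters of transcripts were counted as 31-base words.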

Additional observations from a re-analysis of the deposited data

Results flagged for a closer look

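Single libraries stood apart from the rest of their group for Rgs5 and Myh11, by Dixon's test at its 95% level. Rgs5 was 4.82 CPM in Sox2-positive library 5 of batch A, where the other 5 held 2 counts or fewer. Myh11 was 1.88 CPM in Sox2-positive library 3 of batch A, where the others had 0 counts, and 1.43 CPM in Sox2-positive library 5 of batch B, where the others had at most 1 count. In all, 3 of the 36 groups tested were picked out. The nominal rate of about 1 group in 20 holds for normally distributed values. These 3 groups lay near the floor, where the others were at or near 0 counts, so that rate is no measure here.

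The difference between the sorted populations differed between the batches for 4 genes, tested as an interaction with edgeR. The log2 values, batch B minus batch A, were 1.94 for Acta2, 1.33 for Tagln, 3.17 for Rgs5 and 1.34 for Abcc9. Those of Acta2 and Tagln passed also without libraries 1 and 2 of batch B, at 1.82 (adjusted p 0.000485) and 1.47 (adjusted p 0.00396), whereas those of Rgs5 and Abcc9 did not pass.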

How the results depend on the processing

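Of 1200 alternative values for the log2 fold changes of the 8 tested genes, 1159 kept their direction and their side of the threshold, 29 lost a call, 5 gained one and 7 changed sign. The genes of the 9 called higher numbered 1 to 2 over both batches and 0 to 1 in batch A when single libraries were left out, and in batch B 1 without libraries 1 and 2 of that batch, 1 with a replicate block and 1 in the model of the 4 group means (Cspg4, adjusted p 0.0621, 0.0561 and 0.104). Without libraries 1 and 2 of batch B the genes called numbered 481 for the interaction, 754 between batches in Sox2-negative cells and 1159 in Sox2-positive cells, and 2 of the 9 genes, Acta2 and Tagln, kept the interaction call. Sign changes were all in differences near 0 or, for Actc1, between tools: Actc1 over both batches was -0.35 with DESeq2, Acta2 in batch B was 0.0154 with total-count scaling, and with single libraries left out Cspg4 in batch A ranged from -0.0485 to 0.189 and the Pdgfrb interaction from -0.235 to 0.104. The cause of these shifts was not tested. Deviations from the group means were hardly correlated between same-numbered libraries (r from -0.02 to 0.05 over 10 pairs, 1 best matched by its own number). This cannot tell whether same-numbered libraries share mice. The replicate block gave 557 genes for the interaction, and Abcc9 lost its call there (adjusted p 0.152). Depth limits Myh11 (0 to 47 counts) and the Sox2-positive levels of Rgs5 (0 to 24 counts).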
